A study of Caenorhabditis elegans with 8 samples.

Results

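The genotype difference under oxidative stress was taken from 4 of the 8 RNA-seq libraries of this study, the tBOOH-treated libraries of N2 wild-type worms and of *nhr-49(nr2041)* mutants, numbered 1 and 3 in each genotype. All worms were at the L4 stage, were fed *Escherichia coli* OP50, and had been exposed to 7.5 mM tBOOH (tert-butyl hydroperoxide, an organic peroxide) for 4 hr. The *nr2041* allele is a null allele, carried in the whole animal and backcrossed to N2. The other 4 libraries, from untreated worms of both genotypes, share no library with this comparison and are given beside it. Total counts were 5852727 and 4802744 in treated N2 worms and 4420382 and 4112931 in treated mutants, for replicates 1 and 3, so that the floor used here, 3 counts in a library, stands for 0.508 to 0.701 CPM (counts scaled to the same effective library size in every sample). Floors and counting intervals cover counting error only. Whole worms were sequenced, so that fewer cells of a type and less RNA per cell cannot be told apart.

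NHR-49 is a nuclear hormone receptor related to mammalian HNF4 and similar in role to PPARα. In *Caenorhabditis elegans* it acts with the mediator subunit MDT-15 and is known for activating genes of fatty acid desaturation and beta-oxidation in fed and fasted worms. Fatty acid beta-oxidation runs in mitochondria, where carnitine palmitoyltransferases bring in the acyl chains, and in peroxisomes, where very long chains and ascaroside pheromone precursors are shortened. Detoxification of peroxides and their products uses phase I enzymes (cytochrome P450s, flavin-containing monooxygenases, short-chain dehydrogenases), phase II enzymes (glutathione S-transferases, UDP-glucuronosyltransferases) and phase III export pumps.

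Reads were still counted on *nhr-49* itself (WBGene00003639, chromosome I of the WBcel235 annotation), with 648 and 568 counts in treated N2 worms and 140 and 133 counts in treated mutants. The groups did not overlap, and the level was 109 ± 1.44 CPM in N2 and 30.2 ± 3.55 CPM in the mutant (SD, n = 2 each). This gave a log2 difference of -1.85 ± 0.37 (SE from DESeq2; adjusted p = 0.000245 in the exact test of edgeR). Counts per gene do not show on which part of the gene the remaining reads lie.

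Markers of yolk, oocytes and germline set 1 of the 4 treated libraries apart. Vitellogenins, the yolk proteins of the adult intestine, summed to 85700 and 40580 CPM in treated N2 worms and to 67482 and 3560 CPM in treated mutants, with none of the 6 genes at 0. Oocyte and eggshell genes (25 genes) summed to 6991 and 5035 CPM in N2 and to 7920 and 981 CPM in the mutant. Germline genes (37 genes) summed to 7199 and 5673 CPM against 6583 and 2847 CPM, and sperm genes to 2893 and 2767 CPM against 2608 and 1496 CPM. Replicate 3 of the mutant was thus the lowest library for each of these lists, and the untreated mutant of replicate 3 was low as well, at 833 CPM for the vitellogenins. Muscle genes lay between 27576 and 32611 CPM and pan-neuronal genes between 814 and 1129 CPM in the 4 treated libraries. Between replicates, 3676 genes differed by more than 2-fold in treated mutants and 1785 in treated N2 worms. The part of this library in the results was not tested other than by leaving it out, and values without it are given beside the results it touches.

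Of the 14334 genes tested, 73 (0.509%) were lower and 256 (1.79%) were higher in the mutant when both genotypes had been treated (exact test, threshold of 0.05 on the adjusted p). The median log2 difference was -2.42 for the lower genes and 2.79 for the higher genes, against -0.05 for all genes tested. For 51 of the lower and 197 of the higher genes the difference was more than 4-fold. In each of the 329 genes the 2 libraries of one genotype lay on one side of the 2 libraries of the other, a separation also seen in 22% of all genes tested below N2 and in 20.4% above it. The quasi-likelihood test of edgeR, a stricter test, called 12 of the lower and 39 of the higher genes and no others. Leaving out 1 library gave 28 lower and 51 higher genes without N2 replicate 1, 27 and 74 without N2 replicate 3, 104 and 690 without *nhr-49* replicate 1, and 32 and 116 without *nhr-49* replicate 3. Of the 73 lower genes, 17 (23.3%) were called in each of these fits, as were 36 (14.1%) of the 256 higher genes.

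**Figure D1:**
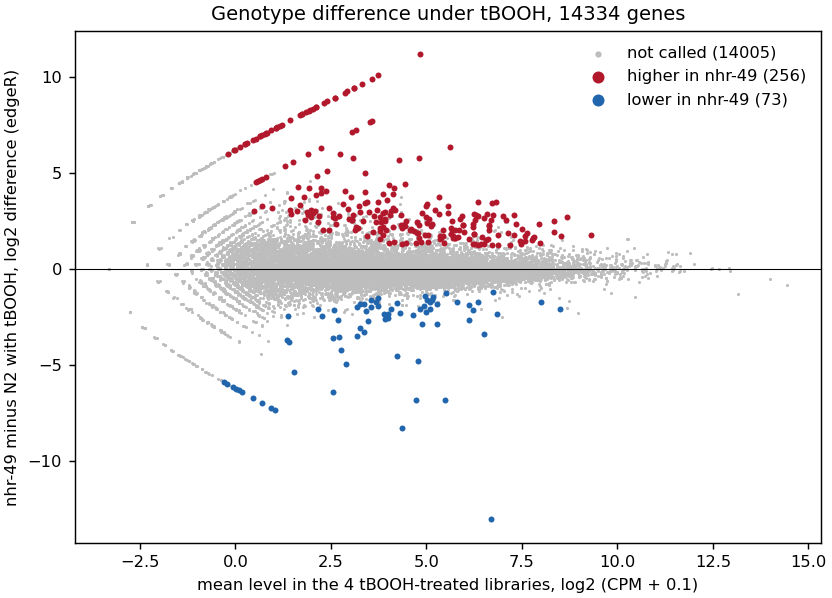
Log2 difference between tBOOH-treated nhr-49 and tBOOH-treated N2 worms (y axis, edgeR) against the mean level in the 4 treated libraries (x axis, log2 of CPM + 0.1) for the 14334 genes tested, with 1 point a gene. The 73 lower genes are blue and the 256 higher genes red, and the straight lines of red and blue points are genes with both libraries of one genotype at 0.

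Lipid metabolism was represented among the lower genes. Of 9 measured genes long known as NHR-49 targets in fat metabolism, 5 were lower with tBOOH (*fat-5*, *fat-6*, *fat-7*, *acs-2*, *cpt-5*), none was higher, and the median of the 9 was -2.35, with -1.85 from replicate 1 and -2.80 from replicate 3. The Δ9 fatty acid desaturases, which introduce the first double bond into stearic or palmitic acid, accounted for 3 of the 5. *fat-7* (WBGene00001399, chromosome V) had 250 and 208 counts in treated N2 worms and 1 and 0 in treated mutants, a ratio of 372 with a counting interval from 66.4 to 14724. *fat-5* (WBGene00001397, chromosome V) had 254 and 323 counts in N2 against 0 and 4 in the mutant, a log2 difference of -6.82 ± 0.86 (SE; exact test, adjusted p = 5.61e-19). *fat-6* (WBGene00001398, chromosome IV), the close relative of *fat-7*, was lower but far from absent, at 894 and 1244 counts in N2 and 180 and 163 in the mutant. Its log2 difference was -2.35 ± 0.43 (SE; exact test, adjusted p = 7.79e-05). How reads shared between *fat-6* and *fat-7* were counted is not given in the sources used here, and *fat-5* overlaps *twk-42* in the annotation.

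The other desaturases and elongases did not pass the test. Of 27 measured genes of fatty acid synthesis, desaturation and elongation only the same 3 Δ9 desaturases were lower, and none was higher. The median over the 27 was -0.38, and it lay between -0.40 and -0.22 with 1 treated library left out.

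Fatty acid activation and beta-oxidation held 9 lower genes and 1 higher gene among 64 measured, with a median of -0.35 (between -0.29 and -0.18 with 1 library left out). The lower genes numbered 5 without N2 replicate 1, 4 without N2 replicate 3, 4 without *nhr-49* replicate 3 and 7 without *nhr-49* replicate 1. *acs-2* (WBGene00009221, chromosome V), which encodes a mitochondrial acyl-CoA synthetase, had 679 and 327 counts in treated N2 worms and 2 and 5 in treated mutants. Both mutant libraries lay far below both N2 libraries, with a log2 difference of -6.81 ± 0.76 (SE; exact test, adjusted p = 8.4e-17). *cpt-5* (WBGene00008629, chromosome V), a carnitine palmitoyltransferase gene, had 71 and 57 counts in N2 against 0 and 1 in the mutant, a ratio of 104 with a counting interval from 18.3 to 4138. The higher gene of this list was a second carnitine palmitoyltransferase, *cpt-4* (WBGene00019644, chromosome V), at 72 and 46 counts in N2 and 287 and 201 in the mutant. Its log2 difference was 2.37 ± 0.40 (SE; exact test, adjusted p = 6.59e-06). Thus 2 members of the same enzyme family lay on opposite sides, and *cpt-1*, *cpt-2*, *cpt-3* and *cpt-6* did not pass the test.

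Peroxisomal steps of beta-oxidation were represented among the lower genes as well. *maoc-1* (WBGene00017123, chromosome II), an enoyl-CoA hydratase of the peroxisome, had 165 and 125 counts in treated N2 worms and 22 and 16 in treated mutants, with a log2 difference of -2.61 ± 0.61 (SE; exact test, adjusted p = 0.0021). *acs-7*, an acyl-CoA synthetase gene, had 256 and 317 counts in N2 and 46 and 55 in the mutant, a log2 difference of -2.22. In neither gene did the groups overlap, as in every called gene. *maoc-1* overlaps E04F6.6 and *acs-7* overlaps C01G6.9 in the annotation. Further members were named after their values were seen. *acox-1*, which encodes the acyl-CoA oxidase of the first step, had 272 and 265 counts in treated N2 worms and 53 and 64 in treated mutants (log2 difference -1.90 ± 0.37, SE; exact test, adjusted p = 0.000106). For *daf-22*, the thiolase of the last step, the counts were 298 and 314 against 62 and 57 (log2 difference -2.06). Counting by the exact test, *acdh-2*, *pmp-5* and *acs-22* completed the 9, with log2 differences of -2.08, -1.72 and -1.21. In this list 54 genes did not pass the test, among them *dhs-28*, *ech-8*, *ech-9* and *pmp-1* to *pmp-4*. The peroxins, which build the peroxisome, were also examined after the values were seen. All 11 measured *prx* genes had a negative log2 difference, between -1.89 and -0.10, as did 7666 of the 14334 genes tested. Only *prx-6* (-1.89) and *prx-2* (-1.79) passed the test.

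Of 21 lipid-binding protein and lipase genes, 2 were lower and none was higher, and the median was -0.08. Without *nhr-49* replicate 3 none was lower, and without any other treated library 1 was. *lipl-3*, a lysosomal lipase gene known from fasted worms, had 165 and 46 counts in treated N2 worms and 11 and 6 in treated mutants, a log2 difference of -3.26. *lbp-5*, a fatty acid-binding protein gene, had 88 and 116 counts against 19 and 24, a log2 difference of -1.96. *icl-1*, the glyoxylate shunt enzyme, did not pass, at a log2 difference of -1.45 (exact test, adjusted p = 0.266).

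Enzymes of detoxification were found on both sides. The flavin-containing monooxygenase *fmo-2* (WBGene00001477, chromosome IV) was at 1606 and 727 counts in treated N2 worms, while neither treated mutant library held a read of it, at least 309-fold lower. It had the largest fitted difference of all genes tested, and the other 4 *fmo* genes did not pass the test. *cyp-37B1* (WBGene00009226, chromosome V), a cytochrome P450 gene that overlaps F28G4.2, had 271 and 318 counts in treated N2 worms and 13 and 4 in treated mutants, a log2 difference of -4.78 ± 0.75 (SE; exact test, adjusted p = 1.18e-05). Without tBOOH its counts were 23 and 22 in N2 and 19 and 4 in the mutant, a log2 difference of 0.21. *dhs-18* (WBGene00000981, chromosome V), a short-chain dehydrogenase gene that overlaps C45B11.6, had 204 and 198 counts in N2 and 7 in each treated mutant library, a log2 difference of -4.52 ± 0.59 (SE; exact test, adjusted p = 3.03e-13). The alcohol dehydrogenase gene *sodh-1* was lower in treated mutants as well, with 71 and 75 counts against 1211 and 668 in N2. *ugt-43*, a UDP-glucuronosyltransferase gene, had 54 and 64 counts in N2 and 1 and 7 in the mutant, and *cyp-25A3* had 57 and 65 against 6 and 10. *gstk-1*, a kappa-class glutathione S-transferase gene, was the only lower gene of its family, with 98 and 96 counts in N2 and 19 and 16 in the mutant and a log2 difference of -2.16.

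Other lower genes included the neuropeptide-like gene *nlp-25* (8 and 31 counts in treated N2 worms, none in either mutant library, at least 5.45-fold lower), the C-type lectin genes *clec-47* (62 and 71 against 7 and 2) and *clec-7* (148 and 45 against 12 and 6), and the myo-inositol transporter gene *hmit-1.1* (122 and 64 against 7 and 6). *nlp-25* lost its call with any 1 treated library left out. Replicate 3 of the mutant was lower than replicate 1 for *clec-47* and *clec-7*. In both genes each mutant library lay below each N2 library, as in every lower gene, so that this supports nothing by itself. F59B2.12 (92 and 67 against 3 and 1), Y48A6B.9 (70 and 72 against 2 and 4) and F26D2.16 (29 and 22 against 3 and 0) were also among the 12 largest differences. *scl-2*, a gene of an SCP-like extracellular protein named after its values were seen, had 3421 and 3114 counts in N2 and 522 and 727 in the mutant, a level of 584 ± 7.86 CPM in N2 and 137 ± 20.8 CPM (SD, n = 2 each; exact test, adjusted p = 0.00022). In all, 31 of the 73 lower genes belonged to one of the gene lists and 42 to none.

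**Figure D2:**
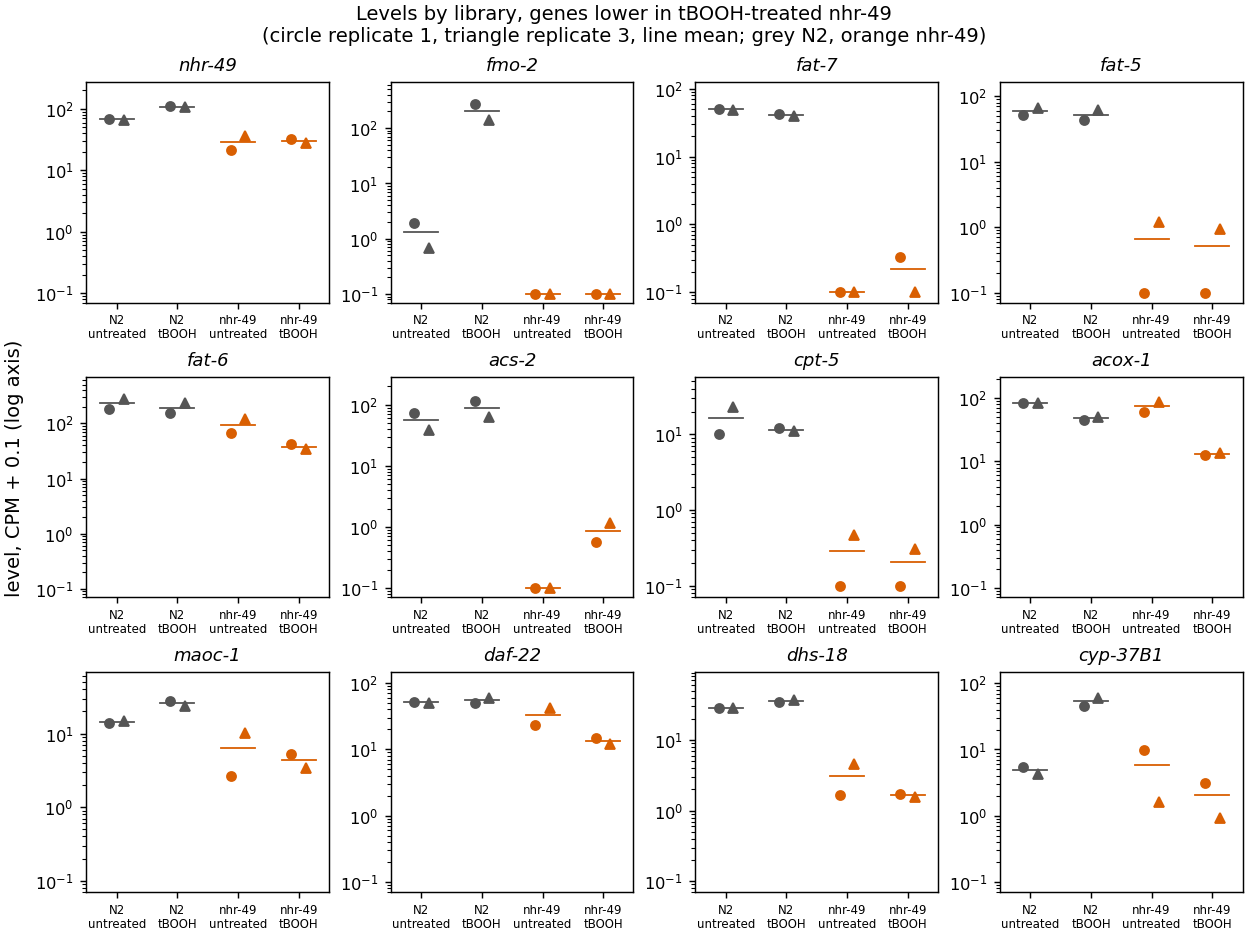
Levels (CPM + 0.1, log axis) of 12 genes lower in tBOOH-treated nhr-49 worms, by library, with a circle for replicate 1, a triangle for replicate 3 and a line for the mean, grey for N2 and orange for nhr-49. For fmo-2, fat-7, fat-5, acs-2 and cpt-5 the treated mutant libraries held 0 to 5 counts. For acox-1 and cyp-37B1 the untreated genotypes overlapped, with the untreated mutant libraries of cyp-37B1 far apart.

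The genes with the largest differences on the other side were nearly silent in wild-type worms. Both treated N2 libraries had 0 counts for 43 of the 256 higher genes, and 57 of the 256 had at most 3 counts in each of the 4 N2 libraries, treated or not. Such a level is under the filter of 1 CPM, so that these 57 genes entered the test only through the mutant libraries in which they were high. Their number supports nothing by itself, and 1.73% of all genes tested were at this level in N2. Among the 73 lower genes, 16 had at most 3 counts in each of the 4 mutant libraries, against 1.79% of all genes tested. The number of these 16 likewise supports nothing by itself. For 29 of the 256 all 4 N2 libraries were at 0, and 20 of these 29 were also called higher in untreated mutants. T15D6.8 (WBGene00011782, chromosome I) had no count in any N2 library and 117 and 411 counts in treated mutants, at least 105-fold higher. Untreated mutants had 121 and 66 counts of it. The neighbouring *glct-3* (WBGene00011781), a homolog of glucuronyltransferases, had none in N2 and 64 and 183 counts in treated mutants, at least 49.3-fold higher. ZK218.5 (WBGene00013939, chromosome V) had none in N2 and 129 and 81 counts in treated mutants, at least 43.7-fold higher, with 79 and 106 counts in untreated mutants. *gmd-2* (chromosome I), which encodes a homolog of GDP-mannose dehydratase and overlaps F56H6.4, had none in treated N2 worms and 27 and 159 counts in treated mutants, at least 36.6-fold higher. ZK218.7, R52.6, C14C6.6, ZK218.3, ZK218.11, *clec-58*, C17A2.7 and T09E11.9 followed, all with 0 counts in both treated N2 libraries and 20 to 125 counts in the treated mutant libraries. The lower bounds on their differences ran from 12.1-fold (T09E11.9) to 31.8-fold (ZK218.7). In these 12 genes every mutant library, treated or not, lay above every N2 library. They were picked for large differences and for treated groups that do not overlap, so that their separation supports nothing by itself. The mutant replicates were not equal among themselves, since replicate 3 of the treated mutant had more than 2 times the level of replicate 1 in 96 of the 256 higher genes, against 15.1% of all genes tested.

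Some lectin genes and a lipase-related gene had a few counts in treated N2 worms and many more in treated mutants. *clec-71* (WBGene00021582, chromosome IV) had 1 and 0 counts in treated N2 worms and 127 and 85 in treated mutants, a ratio of 261 with a counting interval from 46.3 to 10358. *clec-9* (WBGene00013493, chromosome V) had 7 and 4 counts against 279 and 216, a log2 difference of 5.78 ± 0.66 (SE; exact test, adjusted p = 2.94e-15). *lips-6*, a lipase-related gene named after its values were seen, had 6 and 7 counts in N2 and 281 and 617 in the mutant (log2 difference 6.35 ± 0.61, SE; exact test, adjusted p = 4.2e-19). Of 120 C-type lectin domain genes measured, 17 were higher and 4 lower, with a median of 0.33, and 8 were higher without either N2 library, 14 without *nhr-49* replicate 3 and 19 without *nhr-49* replicate 1. *lys-3*, a lysozyme gene, had 6 and 14 counts in N2 and 127 and 181 in the mutant, a log2 difference of 4.19. Among aspartyl, cathepsin B-like and astacin proteases (51 genes), 4 were higher and none lower, with 1 higher without N2 replicate 1, 0 without N2 replicate 3, 2 without *nhr-49* replicate 3 and 5 without *nhr-49* replicate 1. They included *cpr-3*, a cathepsin B-like gene, at 42.1 ± 5.99 CPM in N2 and 133 ± 16.7 CPM in the mutant (SD, n = 2 each), and *asp-12*, an aspartyl protease gene, at 33.6 ± 12.5 and 118 ± 15.5 CPM. Members of these families resemble each other, and reads shared between them may be split in a way not given in the sources used here.

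**Figure D3:**
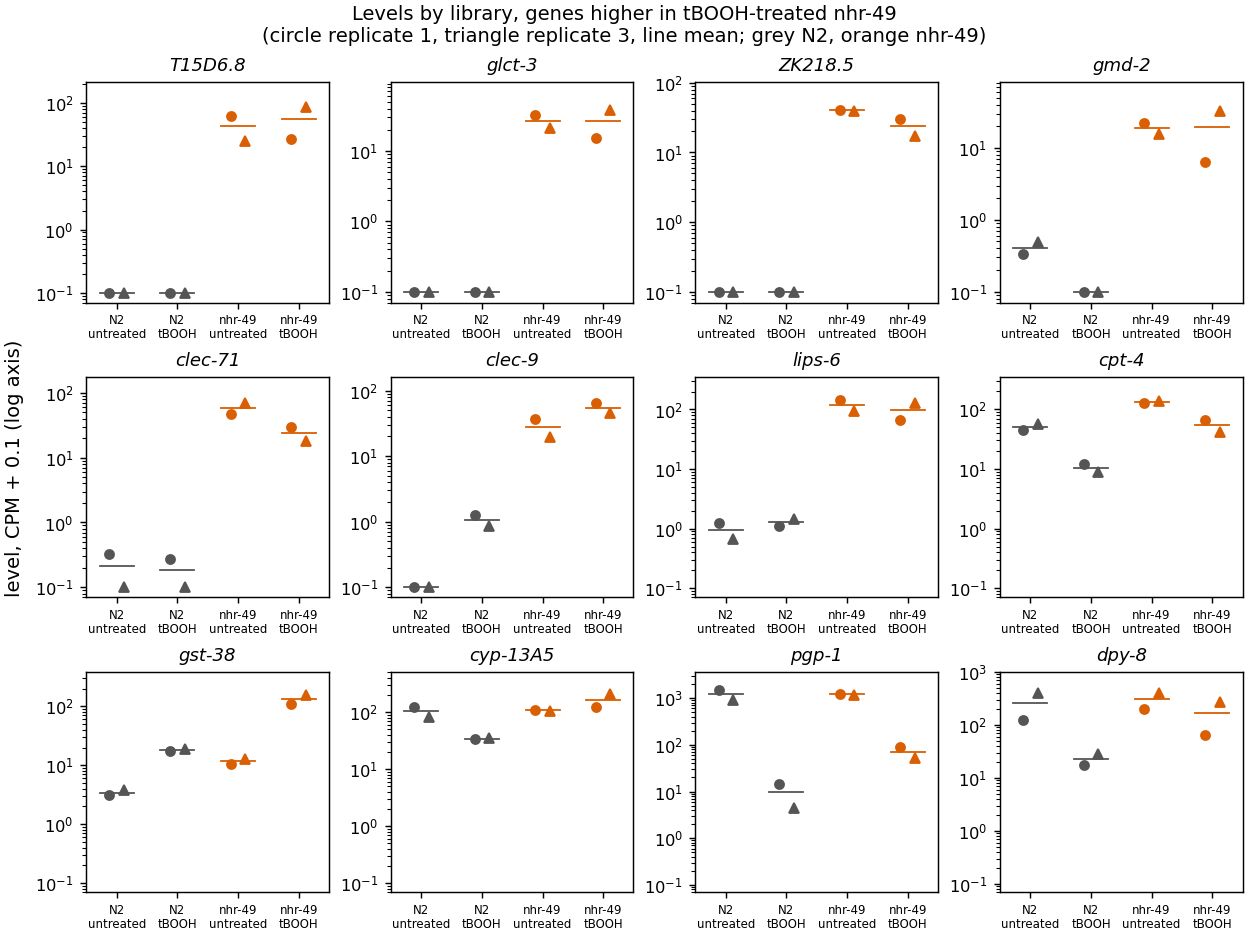
Levels (CPM + 0.1, log axis) of 12 genes higher in tBOOH-treated nhr-49 worms, by library, with symbols and colors as for the lower genes. T15D6.8, glct-3 and ZK218.5 had 0 counts in all 4 N2 libraries, while cyp-13A5, pgp-1 and dpy-8 stood at similar levels in untreated worms of both genotypes and were lower in treated N2 than in treated mutant worms.

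Many of the higher genes lay next to each other in the genome. Among 254 higher genes placed on the WBcel235 annotation, 110 (43.3%) had another higher gene among the 5 protein-coding genes on either side, as did 9.53% of all 13655 genes tested and placed. For the lower genes the shares were 5.63% (4 of 71) and 3.6%. The longest run, on chromosome I, held 11 higher genes within 22 protein-coding genes, from T09E11.9 over *oac-45*, *oac-44*, *oac-43*, T15D6.4, *gly-16*, *glct-3*, T15D6.8, T15D6.11 and T15D6.12 to E03H4.4. A run on chromosome II held 6 higher genes within 11, 5 of them glutathione S-transferase genes (*gst-20*, *gst-24*, *gst-14*, *gst-12*, *gst-19*). On chromosome IV a run of 5 within 9 consisted of lectin genes (*clec-67*, *clec-71*, *clec-174*, *clec-72*, *clec-74*), and on chromosome V a run of 4 within 6 consisted of ZK218.3, ZK218.5, ZK218.7 and ZK218.11. Neighbours can share reads where they are similar in sequence or overlap, so that they are not independent genes. By chromosome, the share of higher genes among those tested ranged from 0.508% on chromosome III to 2.87% on chromosome V. Among the 89 tested genes that lie within 50 protein-coding genes on either side of *nhr-49*, 1 was lower (C04F12.7) and 1 higher (C04F12.1). The *oac* genes, homologs of acyltransferases that were grouped after their values were seen, supplied 13 higher and no lower genes among 42 measured, with a median of 1.57 with tBOOH and 1.52 without.

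Of 41 glutathione S-transferase genes measured, 11 were higher and 1 was lower in treated mutants. The family median stood at 1.20 with tBOOH and at 0.41 in untreated worms. In 35 of the 41 there was a positive log2 difference with tBOOH, whereas 7666 of all 14334 genes tested had a negative one. Summed over all 49 family members in the counts, their level was 1381 and 1430 CPM in treated N2 worms and 2413 and 3618 CPM in treated mutants, for replicates 1 and 3. The 2 mutant libraries lay above the 2 N2 libraries, and in untreated worms the sums were 835 and 785 CPM in N2 and 833 and 879 CPM in the mutant. *gst-38* (WBGene00001786, chromosome V) had 104 and 101 counts in treated N2 worms and 465 and 750 in treated mutants, a log2 difference of 2.85 ± 0.39 (SE; exact test, adjusted p = 2.11e-09). *gst-31* had 113 and 80 counts against 248 and 389 (log2 difference 2.02), and *gst-12* had 373 and 310 against 732 and 1316 (log2 difference 1.87). *gst-6*, which the study text names, had 125 and 106 counts in N2 and 272 and 288 in the mutant (log2 difference 1.58 ± 0.35, SE; exact test, adjusted p = 0.00138). *gst-4*, often used as a reporter of SKN-1 activity, did not pass the test, with 289 ± 31.3 CPM in N2 and 192 ± 114 CPM in the mutant (SD, n = 2 each; adjusted p = 0.867, exact test). The counts depended on which library was left out. Without N2 replicate 1 there were 1 higher and 1 lower gene, without N2 replicate 3 there were 1 and 0, without *nhr-49* replicate 3 there were 4 and 0, and without *nhr-49* replicate 1 there were 14 and 2, while the family median lay between 0.83 and 1.42. The quasi-likelihood test called 1 of these 41 genes.

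Of 67 cytochrome P450 genes measured, 10 were higher and 3 lower, with a median of 0.64. The *cyp-13A* genes, grouped after their values were seen, held 4 of the 10 among 11 measured. *cyp-13A5* (WBGene00011672, chromosome II) had 201 and 183 counts in treated N2 worms and 520 and 995 in treated mutants, a log2 difference of 2.26 ± 0.40 (SE; exact test, adjusted p = 1.58e-05). *cyp-13A4* had 8 and 1 counts against 65 and 57 (log2 difference 4.04), *cyp-13A8* had 30 and 26 against 82 and 92, and *cyp-13A10* had 120 and 81 against 477 and 1294. The treated groups did not overlap in any of the 4, as in every called gene, and *cyp-13A4*, *cyp-13A5* and *cyp-13A8* are neighbours. With 1 treated library left out, the higher and lower P450 genes numbered 2 and 2 without N2 replicate 1, 2 and 1 without N2 replicate 3, 3 and 3 without *nhr-49* replicate 3, and 13 and 2 without *nhr-49* replicate 1. Short-chain dehydrogenases had 3 higher genes (*dhs-8*, *dhs-14*, *dhs-23*) and 1 lower gene (*dhs-18*) among 29. The higher count was 0 without either N2 library, 1 without *nhr-49* replicate 3 and 4 without *nhr-49* replicate 1. UDP-glucuronosyltransferases had 3 higher genes among 58, with 2, 1, 2 and 6 when N2 replicate 1, N2 replicate 3, *nhr-49* replicate 3 or *nhr-49* replicate 1 was left out. Of these, *ugt-10* had 1 and 0 counts in treated N2 worms and 53 and 157 in treated mutants, *ugt-18* had 175 and 128 against 424 and 688, and *ugt-16* had 15 and 18 against 51 and 105. Of 46 ABC transporter genes, *pgp-1* and *haf-7* were higher. The count was 1 without N2 replicate 1, N2 replicate 3 or *nhr-49* replicate 3 and 4 without *nhr-49* replicate 1. *pgp-1*, a P-glycoprotein gene, had 87 and 23 counts in treated N2 worms and 377 and 254 in treated mutants, a log2 difference of 2.88 ± 0.53 (SE; exact test, adjusted p = 0.000385), and 6445, 4817, 2403 and 3078 counts in the untreated libraries (N2 first), a log2 difference of -0.01.

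A list of transsulfuration, hydrogen sulfide and EGL-9 pathway genes, *hif-1* and *egl-9* included, had 4 higher and no lower genes among 18 measured, with a median of 0.69. Of the 4, *gst-19* was also counted among the 11 higher glutathione S-transferase genes. The quasi-likelihood test called none of the 18. *rhy-1*, which encodes an acyltransferase that acts upstream of HIF-1, had 131 and 98 counts in treated N2 worms and 273 and 290 in treated mutants (log2 difference 1.61 ± 0.37, SE; exact test, adjusted p = 0.00151). *cysl-2*, a cysteine synthase-like gene, had 366 and 234 counts against 686 and 979 (log2 difference 1.78), and *nit-1*, a nitrilase gene, had 559 and 433 against 949 and 1778 (log2 difference 1.74). *rhy-1*, *cysl-2* and *nit-1* each overlap another protein-coding gene. *hif-1* itself had a log2 difference of 0.04. The count was 0 without either N2 library, 1 without *nhr-49* replicate 3 and 6 without *nhr-49* replicate 1.

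Among cuticle genes, the calls were mainly in collagens with body-shape mutants. Of 20 collagen genes known from body-shape mutants (*dpy*, *rol*, *sqt* and the like), 9 were higher in treated mutants and none was lower, and the median was 2.41 with tBOOH and -0.23 without. *dpy-8* (WBGene00001070, chromosome X) had 102 and 152 counts in treated N2 worms and 278 and 1302 in treated mutants, a log2 difference of 2.87 ± 0.69 (SE; exact test, adjusted p = 0.0254). *dpy-3* had 15 and 13 counts against 39 and 147, *dpy-9* had 12 and 18 against 37 and 179, and *dpy-17*, which was also higher in untreated mutants, had 12 and 11 against 59 and 74. In each of them replicate 3 of the mutant was the highest treated library. *rol-6* and *sqt-3*, named after their values were seen, had log2 differences of 2.32 and 2.34. Untreated levels of *sqt-3* were 960 CPM in N2 and 712 CPM in the mutant on average, and treated levels were 82.1 ± 61.3 and 415 ± 280 CPM (SD, n = 2 each). Genes of the moult and of the apical extracellular matrix (34 measured) had 4 higher members, *mlt-9*, *mlt-11*, *noah-2* and *lpr-3*, and a median of 1.36 with tBOOH and -0.05 without. *mlt-11*, a protease inhibitor gene of the moult, had 474 and 746 counts in treated N2 worms and 1544 and 5141 in treated mutants. Of 64 measured genes related to Hedgehog and patched, many of which are expressed in the epidermis, 6 were higher, including *wrt-4* (51 and 150 counts against 672 and 1221), *wrt-8* (83 and 207 against 637 and 1088), *grl-15* (13 and 25 against 51 and 242) and *wrt-2* (22 and 28 against 53 and 187). The other cuticle collagens, 119 *col* genes, had 2 higher members, 1 lower member and a median of -0.08, with 0 to 5 higher when 1 treated library was left out.

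Levels of the moult and collagen lists differed between libraries of 1 genotype. Replicate 3 of the treated mutant, low in yolk and oocyte transcripts, had the highest summed level of the moult list among the treated libraries. The sums were 841 and 1344 CPM in N2 and 1775 and 3855 CPM in the mutant, for replicates 1 and 3. For the body-shape collagens the sums were 1324 and 4736 CPM in treated N2 worms and 3763 and 7428 CPM in treated mutants, so that the summed groups overlapped. In untreated mutants replicate 3, also low in yolk transcripts, had the smaller collagen sum, at 4547 CPM against 9093 CPM in replicate 1. The median over the 20 collagens was 1.87 from the libraries numbered 1 and 2.32 from those numbered 3. The part of the yolk and oocyte difference in these results was not tested. Without *nhr-49* replicate 3, or without N2 replicate 1, 0 of the 20 passed the exact test, 4 passed without N2 replicate 3 and 15 without *nhr-49* replicate 1. In the moult list the count was also 0 without *nhr-49* replicate 3 or N2 replicate 1, 1 without N2 replicate 3 and 11 without *nhr-49* replicate 1. For the Hedgehog-related genes it was 0 without N2 replicate 1, 4 without N2 replicate 3, 2 without *nhr-49* replicate 3 and 16 without *nhr-49* replicate 1. The quasi-likelihood test called none of the 9 collagens, with adjusted p-values of at least 0.175.

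**Figure D4:**
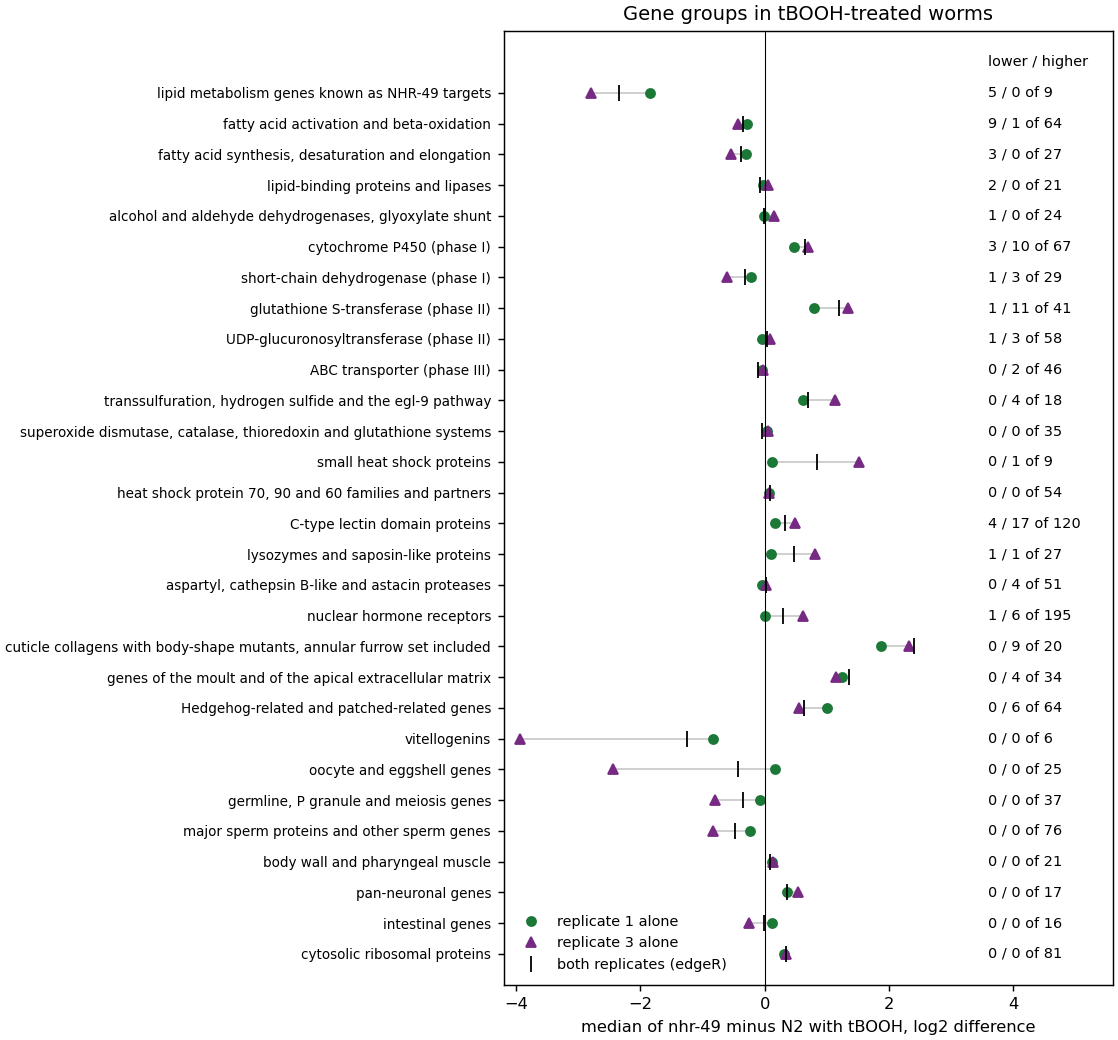
Median log2 difference between tBOOH-treated nhr-49 and N2 worms (x axis) for 29 gene lists (y axis), with a circle for replicate 1 alone, a triangle for replicate 3 alone and a tick for the fit to both, and, at the right, how many of the measured genes were lower and higher. The NHR-49 lipid targets lie at the left and the body-shape collagens at the right in both replicates, whereas the vitellogenins and the oocyte genes were far lower in replicate 3 than in replicate 1.

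Among 195 nuclear hormone receptor genes measured, *nhr-49* was the only lower gene and 6 were higher. The higher count moved with the library left out, since 0 were higher without either N2 library, 2 without *nhr-49* replicate 3 and 19 without *nhr-49* replicate 1, and *nhr-49* itself lost its call without N2 replicate 3 or *nhr-49* replicate 3. The quasi-likelihood test called none of the 195. *nhr-178* had 13 and 11 counts in treated N2 worms and 31 and 93 in treated mutants, and the other 5 (*nhr-81*, *nhr-82*, *nhr-260*, *nhr-265*, *nhr-269*) had at most 5 counts in each N2 library. Receptors that pair with NHR-49 and its coactivator did not pass the test. The log2 differences were -0.99 for *nhr-13*, -0.03 for *nhr-66*, 0.42 for *nhr-80* and -0.28 for *mdt-15*. Of the 23 genes that the study text names for these responses, 4 were lower (*nhr-49*, *fmo-2*, *nlp-25*, *sodh-1*) and 1 was higher (*gst-6*). The list was named by the study on these samples, among others, and its count is no independent evidence. *nlp-25* lost its call with any 1 treated library left out. The other 18 did not pass the test, among them *skn-1* (0.66), *hlh-30* (0.54), *sek-1* (0.57), *gcs-1* (1.05), *sbp-1* (-0.44), *pmk-1* (-0.10), *daf-16* (-0.17), *hsf-1* (0.05), *nhr-62* (0.74), *ptps-1* (1.41) and K05B2.4 (-1.02).

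Several stress systems held no called gene, either in the exact test or in the quasi-likelihood test of edgeR. None of 35 genes of the superoxide dismutase, catalase, thioredoxin and glutathione systems, none of 54 chaperone genes, none of 32 proteasome subunits, none of 30 autophagy genes and none of 35 respiratory chain genes was lower or higher. Their medians ranged from -0.04 (antioxidant systems) to 0.29 (autophagy genes). Each of the 73 lower and 256 higher genes of the whole test differed by more than 2-fold. A list without a called gene can therefore still hold smaller changes. Cytosolic ribosomal proteins had a median of 0.34 with tBOOH and -0.27 without, with no gene called among 81. In 50 of the 81 both treated mutant libraries lay above both treated N2 libraries, against 20.4% of all genes tested. In 2 of the 81 they lay below, against 22%. The sums were 64572 and 73255 CPM in treated N2 worms and 80790 and 90637 CPM in treated mutants. At an unadjusted p under 0.05 in the exact test the counts were 4 antioxidant, 5 chaperone, 0 proteasome, 2 autophagy, 1 respiratory chain and 9 ribosomal genes, against 9.72% of all genes tested. Without *nhr-49* replicate 1, from 1 to 8 genes of each of these lists except the proteasome were called higher. A list of 9 measured genes held small heat shock protein genes and *aip-1*, an arsenite-inducible gene outside that family. Only *aip-1* was higher and none was lower, and the quasi-likelihood test called none of the 9. *aip-1* had 490 and 546 counts in treated N2 worms and 890 and 1445 in treated mutants. *cdr-4*, a cadmium-responsive gene, was also higher, at 569 and 634 against 1012 and 2102 counts. Both *aip-1* and *cdr-4* lost the call without N2 replicate 1, N2 replicate 3 or *nhr-49* replicate 3.

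In untreated worms fewer genes were called, and the untreated mutant libraries had fewer counts. Their totals were 2157766 and 2634620, against 4420382 and 4112931 in treated mutants. With counts thinned to the smallest total, 44 genes were lower and 169 higher with tBOOH, and 22 and 89 without. Without tBOOH, 28 genes (0.195%) were lower and 115 (0.802%) higher in the mutant. The untreated comparison shares no library with the treated one, but both use the same estimate of the spread. Of the genes lower with tBOOH, 13 were also lower without it, that is, 17.8% of the 73 and 46.4% of the 28. Of the genes higher with tBOOH, 86 were also higher without it, or 33.6% of the 256 and 74.8% of the 115. Of these 86 genes, 20 had 0 counts in all 4 N2 libraries. The untreated log2 difference had the same sign in 70 of the 73 lower and 219 of the 256 higher genes, called or not, and in 61.9% of all genes tested. The 256 include the 57 genes that entered the test only through mutant libraries. The overlap and the shared signs of the higher genes are therefore not independent support. The untreated medians were -1.37 for the lower and 1.49 for the higher genes, and no gene was called in opposite directions. *fat-5*, *fat-7*, *acs-2*, *cpt-5*, *dhs-18* and *sodh-1* were lower in both states. By contrast, *acox-1* (-1.90 with tBOOH and -0.16 without), *daf-22* (-2.06 and -0.64), *acs-7* (-2.22 and 0.41), *lbp-5* (-1.96 and -0.17), *gstk-1* (-2.16 and -0.15) and *cyp-37B1* (-4.78 and 0.21) were called only with tBOOH. A call in one state and not in the other does not show that the states differ. In the test of the genotype-by-treatment interaction no gene had an adjusted p under 0.05 by the quasi-likelihood test of edgeR, where 523 genes had an unadjusted p under 0.05, and 11 genes were called by the likelihood ratio test and 16 by DESeq2. At an unadjusted p under 0.05, the genotype difference was larger with tBOOH in 20 of the 73 lower genes and smaller in none, and it was larger in 78 and smaller in 4 of the 256 higher genes. These genes were called on the treated libraries, which also enter the interaction, so that larger differences with tBOOH are favored by the way they were chosen.

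**Figure D5:**
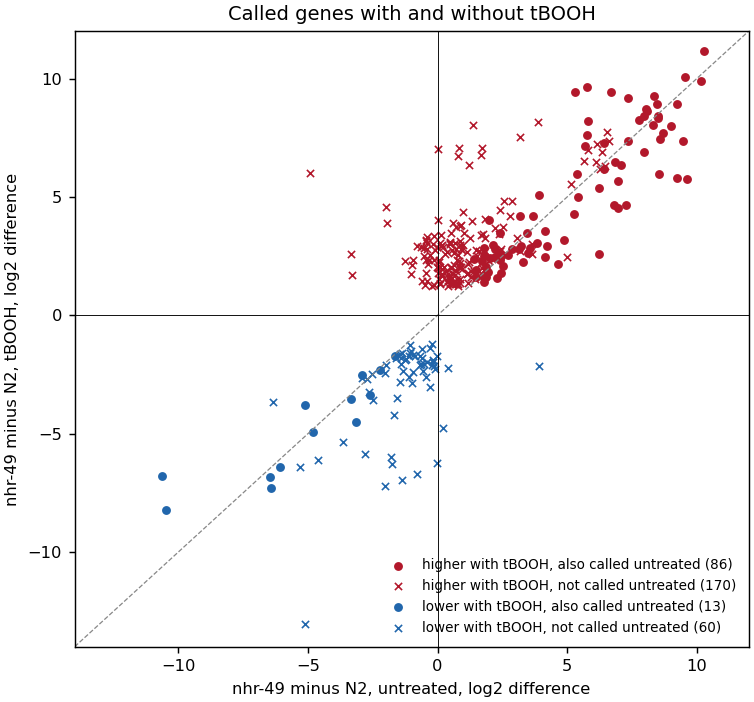
Log2 difference between nhr-49 and N2 worms with tBOOH (y axis) against that in untreated worms (x axis) for the 329 genes called with tBOOH, red for higher and blue for lower, with filled circles for the 86 and 13 genes also called in untreated worms and crosses for the other 170 and 60. The dashed line marks equal differences; genes at the far upper right had few or no counts in N2 worms in either state.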

How the data were processed

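The libraries, 2 for each of 4 conditions (N2 and *nhr-49(nr2041)*, untreated or tBOOH-treated), were grouped by genotype and treatment as labelled. RNA was depleted of ribosomal RNA, made into libraries with a SMARTer Universal Low Input kit and sequenced on a NextSeq 500. The authors aligned single-end reads to ce10 with STAR and deposited raw counts for 42048 gene symbols; the counter, annotation and strand setting are not given in the sources used here. The authors also deposited a signal table of counts scaled to CPM with TMM factors; it holds the 14334 genes kept here, and its values differed by at most 4.5e-06 from those recomputed.

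In R 4.3.3, edgeR 4.0.16 was used with TMM factors from the full table, and a gene was kept where 2 or more libraries exceeded 1 CPM. Genotypes were compared by the exact test with 1 dispersion per gene from all 8 libraries, as the study's methods name this test, and genes were called at a Benjamini-Hochberg adjusted p under 0.05. Fold changes used a prior count of 0.125. Standard errors came from DESeq2 1.42.0, and the interaction was tested with edgeR's quasi-likelihood test. Where both libraries of a group were at 0, a fold is a lower bound against 3 counts per library; ratios with 1 to 3 counts have an exact 95% binomial counting interval. Scripts were tested on simulated data, where the exact test made more false calls than its threshold allows and the quasi-likelihood test made fewer than the exact test, so that some of the called genes are likely to be false calls. Total counts ranged from 2157766 to 5852727 over the 8 libraries.

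Symbols were matched to identifiers and gene order in WBcel235 (13937 of 14334 genes, 325 of the 329 called). That build differs from ce10, so no coordinates or promoter sequences are given. Of the 115 genes named by rule or after their values were seen, 24 overlap another protein-coding gene, and without strand their reads cannot be told apart.

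The members, gene lists and tests were chosen with earlier results of these data known. Named genes were *nhr-49*, genes named in the study text, the 12 largest differences in each direction where both libraries of the group with more counts had 20 or more, and up to 4 such genes per list; genes that only spell out a count, a run of neighbours or an overlap, and those marked as named after their values were seen, fall outside this rule. Alternatives were the quasi-likelihood and likelihood ratio tests, DESeq2, RLE factors, other count filters, dispersions from 4 libraries, a replicate block, thinning, a prior count of 2, and leaving out libraries.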

Additional observations from a re-analysis of the deposited data

Results flagged for a closer look

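In 2 of the named genes the libraries of the mutant lay below those of N2 in one state and above them in the other. For *cyp-33B1*, a cytochrome P450 gene, the treated mutant had 65 and 189 counts against 392 and 931 in treated N2 worms, while the untreated mutant had 8 and 9 counts against 2 and 0, with an interaction of -6.11 on the log2 scale (unadjusted p = 0.00135 in the quasi-likelihood test of edgeR). For *gst-5*, a glutathione S-transferase gene named after its values were seen, the treated mutant had 1863 and 3312 counts against 927 and 941, while the untreated mutant had 60 and 96 against 347 and 288, with an interaction of 2.76 (unadjusted p = 0.00017, same test). Neither interaction passed the adjustment over all genes, where the lowest adjusted p of any gene was 0.185.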

How the results depend on the processing

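Counts of called genes depended on the test and on which library was left out. With tBOOH, the 73 lower and 256 higher genes became 12 and 39 with the quasi-likelihood test, 35 and 127 with the quasi-likelihood test and a replicate block, and 44 and 169 with counts thinned to the smallest total. They ranged from 27 to 104 lower and from 51 to 690 higher genes with 1 treated library left out, and without replicate 3 of the mutant in both states, an alternative added after seeing the data, 130 genes were lower, 51 of them shared with the 73, and 209 higher. The untreated 28 lower and 115 higher genes became 4 and 16 with the quasi-likelihood test and 11 and 46 with the block, 59 genes were lower with the likelihood ratio test, and leaving out 1 untreated library gave 10 to 404 lower and 22 to 264 higher genes. The 0 interaction calls became 11 with the likelihood ratio test, 16 with DESeq2 and 113 with no filter on low counts. Deviations of same-numbered libraries from their group means correlated at 0.35 between the treated genotypes and between -0.04 and 0.34 in the other 5 pairs of groups. The labels do not say what a number marks and there are only 2 numbers, so that they were not taken to pair the samples. Over all alternatives, 1568 values of the named genes were counted as unchanged, 330 lost the call and 5 gained one. A further 33 values of single replicates moved by more than the spread, and 15 were counted as changed in sign, none of a called gene. For single replicates, unchanged means within the spread, and changes of sign were counted only for called genes. Some of the 1568 thus changed sign, such as *mdt-15* (-0.2765, and 0.0167 without replicate 3) and *nhr-66* (-0.0341, and 0.2597 without replicate 3). With 1 library or 1 replicate number left out, *daf-16* ranged from -0.1917 to 0.0261, *gst-4* from -1.2926 to 0.112, *mdt-15* from -0.6751 to 0.1435, *nhr-66* from -0.367 to 0.2713, *nhr-80* from -0.0195 to 0.9984 and *pmk-1* from -0.3827 to 0.3766. With thinned counts *hsf-1* was at -0.0467 and *nhr-66* at 0.1565, and *nhr-66* was at 0.0434 with DESeq2 and at 0.0423 with RLE factors. Without replicate 3 of the mutant in both states *mdt-15* was at 0.0675, *nhr-66* at 0.1946 and *nhr-80* at -0.0968. The cause was not tested. With 2 libraries per group, genes with few counts had wide intervals.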

Other observations

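Short nematode-specific peptide genes of the *nspe* family, grouped after their values were seen, had 3 higher members among 6 measured in tBOOH-treated mutants and none lower, with a median log2 difference of 3.53 with tBOOH and 0.09 without. *nspe-2* had 9 and 11 counts in treated N2 worms and 62 and 189 in treated mutants, *nspe-1* had 18 and 20 against 45 and 206, and *nspe-6* had 4 and 9 against 31 and 155. The 3 genes are neighbours on chromosome II, and replicate 3 of the mutant was the highest library in each. Their treated groups did not overlap, as in every called gene. Of 32 epidermal antimicrobial peptide genes measured, 2 were higher and 1 lower, and the higher count was 0 without N2 replicate 1, N2 replicate 3 or *nhr-49* replicate 3 and 5 without *nhr-49* replicate 1. The lower gene, *nlp-25*, lost its call with any 1 treated library left out. Of the 2 higher genes, *fipr-24* had 9 and 15 counts in treated N2 worms and 25 and 287 in treated mutants. For *fipr-22* the counts were 31 and 31 against 72 and 130. In untreated worms these *fipr* genes had at most 2 counts in any library.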
